A study of Rattus norvegicus with 9 samples.

Results

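The nuclear tRNA genes for leucine, isoleucine, methionine, phenylalanine, tryptophan, tyrosine and proline were examined in small-RNA libraries of rat striatum. They were chosen by name alone, as every entry named as a nuclear rat tRNA gene of 1 of these 7 amino acids. The rule gave 98 genes of 14 anticodons, among 408 nuclear tRNA genes and 1759 small-RNA entries in all. The study gave rats the fuel additive methylcyclopentadienyl manganese tricarbonyl (MMT) and compared the striatum, a brain region injured by manganese, with that of controls. Rats were 8 weeks old at the start and were dosed once a day on 6 days a week for 8 weeks. Controls were given corn oil alone, 1 ml/kg. The MMT group received 4 mg/kg MMT in corn oil by the intragastric route, which the labels equate to about 1 mg of manganese per kg. The MnCl2 group, the positive control, received MnCl2·4H2O at 200 mg/kg in physiological saline at 10 ml/kg, so that the vehicle and the manganese salt cannot be told apart in comparisons with the corn oil controls. The series held 18 rats, 9 male and 9 female, and each group has 3 libraries. The labels state neither the strain nor the sex of the animal behind a library, nor whether tissue was pooled. The p-values therefore reflect how much these libraries scatter, and that scatter may be technical.

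A tRNA carries its amino acid to the ribosome and reads the codon through its anticodon, and each anticodon is usually served by several gene copies of the same or nearly the same sequence. Methionine has an initiator tRNA, which starts proteins, and an elongator tRNA, which reads internal methionine codons. Cells also cut tRNAs into shorter RNAs, which are studied in brain as stress-responsive molecules. A gel band of 15 to 45 nucleotides was sequenced here, so the counts stand mostly for fragments and not for whole tRNAs, and less of a tRNA, less cutting of it and fewer cells that hold it cannot be told apart.

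The sequences in the deposited files show how alike the members are, and abundant copies are printed for that reason, with the initiator form for methionine, 5′ to 3′ with the anticodon in capitals. They lack introns and end in CCA, the tail that an enzyme adds after transcription. Positions in a sequence are counted from 1 at its 5′ end. Coordinates are those in the entry names. The submitters' processing notes name the build rn6, but no genome was at hand to check the names, and 2 members lie beyond the last gene that RefSeq lists on their chromosome in the newer GRCr8 assembly, so the build is not settled. The aliphatic and methionine genes come first.
Leu-TAG, chr1:197697715-197697796, minus strand: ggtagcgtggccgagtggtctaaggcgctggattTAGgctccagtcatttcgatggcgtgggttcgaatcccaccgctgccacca
Leu-AAG, chr4:191452793-191452874, minus strand: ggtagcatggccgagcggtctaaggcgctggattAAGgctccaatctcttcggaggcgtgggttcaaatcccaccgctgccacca
Leu-CAG, chr13:95681267-95681349, plus strand: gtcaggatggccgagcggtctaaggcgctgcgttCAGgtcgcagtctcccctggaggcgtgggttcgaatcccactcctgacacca
Leu-TAA, chr1:8655527-8655609, minus strand: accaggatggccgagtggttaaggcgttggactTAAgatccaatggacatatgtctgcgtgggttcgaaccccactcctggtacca
Ile-AAT, chr17:58934828-58934901, plus strand: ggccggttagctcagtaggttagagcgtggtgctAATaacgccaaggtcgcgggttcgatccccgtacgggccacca
Ile-TAT, chr6:7023025-7023117, plus strand: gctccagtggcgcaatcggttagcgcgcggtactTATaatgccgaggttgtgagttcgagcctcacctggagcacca
Met-CAT initiator, chr17:58871868-58871939, plus strand: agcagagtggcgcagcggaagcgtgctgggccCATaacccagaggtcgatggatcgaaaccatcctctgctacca

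The leucine genes are 85 or 86 bases long, as leucine tRNAs have a long variable arm, and every other member has 70 to 82 bases. Leu-AAG and Leu-TAG share 89.4% of their bases and differ in the wobble base of the anticodon among others. The aromatic genes follow. Among them Phe-AAA goes against its name, as it shares 64.5% of its bases with the nearest Phe-GAA gene and 76.9% with a Ser-AGA gene. Its highest identity to an alanine gene was 76.7%.
Trp-CCA, chr10:47463584-47463655, minus strand: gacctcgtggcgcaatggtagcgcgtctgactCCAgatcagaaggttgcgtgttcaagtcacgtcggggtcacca
Tyr-GTA, chr2:124127771-124127860, plus strand: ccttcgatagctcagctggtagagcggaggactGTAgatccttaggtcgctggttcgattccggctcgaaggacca
Phe-GAA, chr17:58764594-58764666, minus strand: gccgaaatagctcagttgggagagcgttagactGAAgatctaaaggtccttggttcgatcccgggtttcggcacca
Phe-AAA, chr8:125618575-125618715, plus strand: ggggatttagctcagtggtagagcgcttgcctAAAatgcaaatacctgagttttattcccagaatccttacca

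The proline genes are shown together with an alanine gene, because the 33 genes named Pro-AGG held 2 unlike kinds of sequence.
Pro-AGG proline-type, chr4:56433550-56433621, plus strand: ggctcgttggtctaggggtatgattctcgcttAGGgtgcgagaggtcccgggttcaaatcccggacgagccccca
Pro-CGG, chr13:88728634-88728705, minus strand: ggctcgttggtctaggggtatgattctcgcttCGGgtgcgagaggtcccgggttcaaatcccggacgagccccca
Pro-TGG, chr1:169977022-169977093, plus strand: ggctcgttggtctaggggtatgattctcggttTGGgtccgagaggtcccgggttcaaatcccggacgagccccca
Pro-AGG alanine-like, most abundant copy, chr13:44632547-44632625, minus strand: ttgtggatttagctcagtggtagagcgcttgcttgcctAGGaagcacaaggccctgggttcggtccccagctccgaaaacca
Pro-AGG alanine-like, sequence of 4 copies: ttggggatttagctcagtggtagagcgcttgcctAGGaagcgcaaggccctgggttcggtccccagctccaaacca
Ala-AGC (not a member), chr5:153255327-153255399, plus strand: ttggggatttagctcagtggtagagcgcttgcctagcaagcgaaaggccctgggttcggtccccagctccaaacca

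In 8 Pro-AGG genes the sequence was of the proline type, 97.3 to 98.7% identical to a Pro-CGG or Pro-TGG gene. The common Pro-AGG sequence differed from Pro-CGG by A33C alone and from the common Pro-TGG sequence by A33T alone, where the first letter belongs to Pro-AGG. The Pro-TGG copy printed above differed from the other 5 by C30G and G38C, facing positions of the anticodon stem. The remaining 25 Pro-AGG genes were only 53.7 to 62.7% identical to Pro-CGG or Pro-TGG genes. They were 78.9 to 97.4% identical to an alanine gene, and all 25 were nearer to alanine than to proline. Among all nuclear tRNA genes outside the list, the nearest was an alanine gene for 21 of the 25. The copies at chr3:77831151 and chr7:112586447 were nearer to a Ser-AGA gene (93.6%) than to alanine (90.9 and 92.2%). Those at chr5:137696877 and chr5:155222288 were equally near to a Thr-AGT and an alanine gene. The sequence shared by 4 of the 25 and the Ala-AGC gene printed beside it differ by 2 edits. The name proline therefore does not describe these 25 entries, and they are called alanine-like Pro-AGG below. As background, rodent genomes hold many short repeats derived from an alanine tRNA, the ID elements. Whether these entries are such repeats was not tested, as no repeat annotation was used. They lay on 15 chromosomes, whereas the 8 proline-type copies lay on 7.

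The members fell into few distinct sequences and into clusters. There were 61 distinct sequences, and 50 of the 98 members had an identical copy elsewhere, in 13 sets. No member was identical to a gene outside the list. Within an identical set the copies' counts differed little: the highest mean lay a median of 2.46% above the lowest (range 0.169 to 33.9%), and the chi-square per degree of freedom had a median of 0.894. Reads of identical copies cannot be assigned to 1 gene. Counts of copies given below still take each gene as a unit, so copies in an identical set are not independent in them. Chromosome 17 held 21 members and chromosome 10 held 16, and 36 members lay in 8 clusters of at least 3 with gaps of at most 100000 bases. The largest cluster, at chr17:58741469-58934901, held 8 members of isoleucine, initiator methionine and phenylalanine. All 5 Leu-CAG genes lay on chromosome 13, and both Leu-TAA genes lay on chromosome 1.

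Libraries held 583045 counts (control 3) to 2012769 counts (control 1), of which 31888 to 98600 fell on the members. Of the 1759 entries 1113 passed the filter on low counts, and these included all 98 members. Levels are in CPM, counts relative to a library's total after scaling by edgeR's trimmed mean of M values (TMM), given as mean ± SD of 3 libraries. Sums over an anticodon come from a second table with its own scaling and are not on one scale with single copies. MicroRNA markers of neurons summed to 60900 to 69200 CPM, with all 6 present, and those of oligodendrocytes to 3840 to 5560. The 3 choroid plexus markers varied most within groups, at 322 to 1080 CPM in control, 253 to 1770 in MMT and 280 to 1140 in MnCl2. The 4 blood markers summed to 61.1 to 178 CPM. Their part in the tRNA results was not tested.

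The members' share of nuclear tRNA counts did not differ by more than the spread between libraries. It was 14.5 ± 0.518% in control, 14.8 ± 0.902% in MMT and 13.9 ± 1.0% in MnCl2 (SD, n = 3 each). The exact two-sided permutation test gave p = 0.7 for MMT against control, p = 0.6 for MnCl2 against control and p = 0.3 for MMT against MnCl2, where 3 against 3 libraries allow no p below 0.1. As a share of all counts the members held 5.22 ± 0.292% in control, 5.27 ± 0.202% in MMT and 4.81 ± 0.361% in MnCl2 (exact permutation p = 0.9, 0.3 and 0.1 for the same comparisons). Their summed level was 56870, 53300 and 49890 CPM in control, 54780, 50680 and 56410 in MMT, and 42170, 46910 and 49110 in MnCl2. MnCl2 thus lay below both other groups without overlap on this scale, which was not tested. Within the members, phenylalanine took 6.18 ± 0.369% of counts in control, 5.91 ± 0.57% in MMT and 7.19 ± 0.326% in MnCl2. Its MnCl2 libraries lay at 6.89, 7.53 and 7.15%, above the 6.53, 6.22 and 5.8% of the controls and the 5.72, 6.55 and 5.46% of MMT. The exact permutation p was 0.1 in both comparisons with MnCl2, and 0.35 and 0.233 after adjustment over the 7 amino acids.

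Trp-CCA was the most abundant anticodon and Phe-AAA the least, and the order was the same for summed CPM and for summed CPM per base. Averaged over the 9 libraries, Trp-CCA had 120.0 CPM per base, Ile-AAT 91.5, Met-CAT 87.0, Leu-CAG 70.3, Leu-TAG 59.1 and Tyr-GTA 57.1. Phe-GAA followed with 42.3, Pro-AGG with 40.6, Pro-TGG with 30.2, Leu-AAG with 16, Leu-TAA with 15.2, Pro-CGG with 13.8, Ile-TAT with 11.4 and Phe-AAA with 0.682. The Pro-AGG sum holds both kinds of sequence. Scaled apart, its proline-type copies summed to 1707 CPM and its alanine-like copies to 1327, beside 2268 for Pro-TGG. The proline-type copies alone thus stood below Pro-TGG. Several neighbours in this order were closer than their spread. In control, Ile-AAT (7188 ± 478 CPM summed) and Met-CAT (6676 ± 329) overlapped, as did Phe-GAA (3258 ± 453) and Pro-AGG (3107 ± 335), Leu-AAG (1475 ± 178) and Leu-TAA (1382 ± 162), and Pro-CGG (1053 ± 87.6) and Ile-TAT (999.1 ± 97.1). The plot of summed levels shows that the 3 groups lay close together for every anticodon beside the differences between anticodons.

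**Figure D1:**
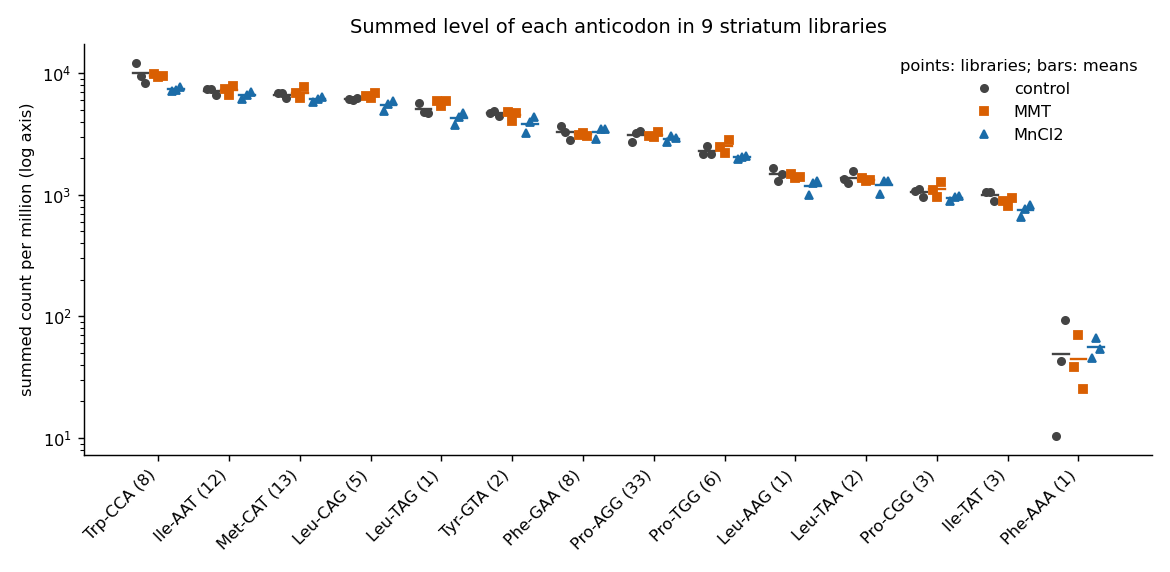
Summed CPM of each anticodon (log axis) in control, MMT and MnCl2 libraries; points are libraries, short bars are group means and the number of gene copies stands in brackets. Anticodons run from Trp-CCA at 7164 to 12210 CPM to Phe-AAA at 10.38 to 93.87 CPM, and the groups of each lie close together.

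Level and number of gene copies did not go in one order. Leu-TAG, with 1 copy, was the most abundant member at a mean of 5011 CPM, and the 2 identical Tyr-GTA copies followed with 2185 and 2145 CPM. Next came the Trp-CCA copy at chr10:47463584 with 1630 CPM and the Leu-CAG copy at chr13:95681267 with 1605 CPM. In contrast the 25 alanine-like Pro-AGG copies had a median of 29.62 CPM (range 14.8 to 239.0), and 23 of them lay below 100 CPM, a level chosen after the values were seen. The 8 proline-type Pro-AGG copies lay between 210.3 and 221.2 CPM.

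Among the other 73 members, the copies of low level were mostly those that differed more in sequence from the most abundant copy of their kind. Each copy was compared with the most abundant copy of its kind, and the 15 copies that served as this reference, Phe-AAA among them, were left out. Other copies identical to a reference were kept. These have nearly its counts, so the choice of reference partly sets the contrast that follows. The 7 remaining copies below 100 CPM shared a median of 88.0% of bases with their reference, and 6 of them shared under 95%. Of the 51 at 100 CPM or more, 5 shared under 95%, and their median was 98.7%. The lowest identity, 62.3%, belonged to the Ile-AAT copy at chr3:118544530, which was 77.3% identical to an Ala-AGC gene and had 71.9 CPM. Divergence did not always go with a low level, since the Leu-CAG copy at chr13:96493620 had 1240.0 CPM at 90.7% identity. No test was made of this relation, as the copies share reads and the level was chosen from them.

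**Figure D2:**
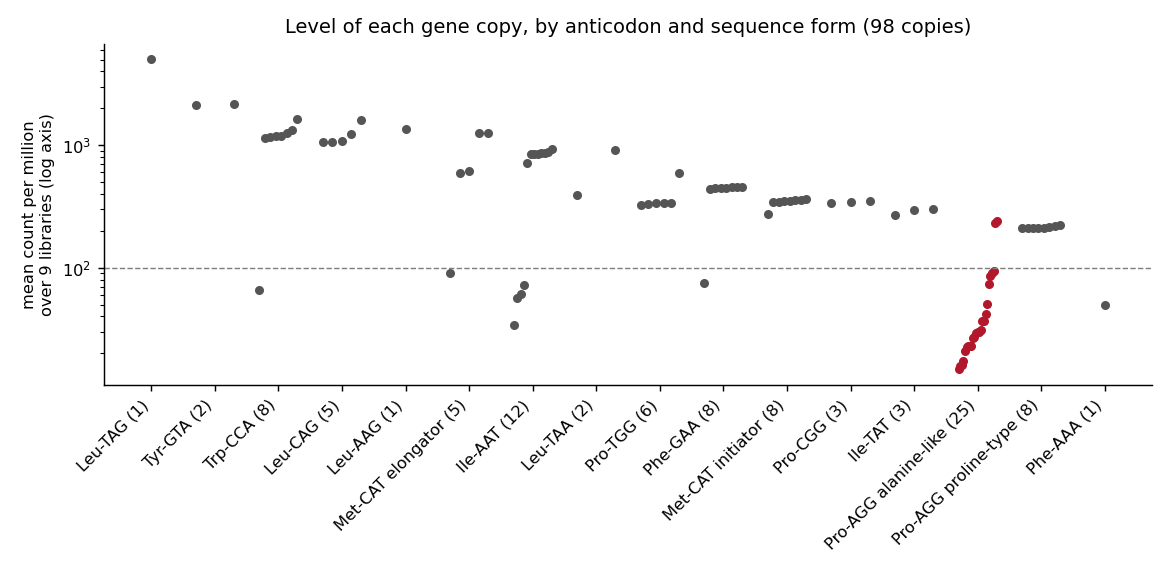
Mean CPM over the 9 libraries (log axis) of each of the 98 gene copies, by anticodon and sequence form, with the number of copies in brackets; alanine-like Pro-AGG copies are red and the dashed line marks 100 CPM. The single Leu-TAG copy stands highest at 5011 CPM, and 23 of 25 alanine-like copies and 8 other copies lie under the line.

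Elongator methionine tRNA outweighed the initiator in every library, by sums of 3511 to 4071 CPM against 2464 to 3199 CPM, with 5 copies against 8. The initiator sums were 2852, 3078 and 2499 CPM in control, 2917, 2587 and 3199 in MMT and 2517, 2588 and 2464 in MnCl2. The groups overlapped, and the log2 fold change of MnCl2 against control was -0.16 (SE 0.14, unadjusted p = 0.275) for the initiator and -0.04 (SE 0.12, unadjusted p = 0.757) for the elongator by edgeR's quasi-likelihood test.

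MMT against control asked whether the organic manganese compound changed these tRNA fragments, and no member passed the test. By edgeR's quasi-likelihood test with Benjamini-Hochberg adjustment over 1113 entries, 0 of 98 copies were called at 0.05, as were 0.0% of all entries, and 0 members had an unadjusted p under 0.05. DESeq2 also called 0. At that p, 0.18% of all entries were higher and 1.98% lower. The log2 fold change was positive in 62 copies and negative in 36, with a median of 0.04 beside 0.01 over all entries. With total-count scaling the split was 50 to 48 and the median 0.0. Of the 310 other nuclear tRNA genes 133 were positive and 177 negative in the main fit, with a median of -0.02. In 2 copies every MMT library lay above every control library, and in 0 below, where 1.8% and 2.79% of all entries did so. For the 14 anticodon sums 0 were called (0.0% of that table), and 0 had an unadjusted p under 0.05, against 0.132% higher and 1.32% lower over the table.

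The copies with the lowest p for a higher level under MMT were 2 proline genes and a leucine gene. The Pro-TGG copy at chr1:169977022, which carries the changed stem pair, had 520.3, 621.6 and 607.9 CPM in control, 655.8, 644.8 and 721.9 in MMT, and 544.1, 520.7 and 550.7 in MnCl2. MMT lay above both other groups without overlap. Its log2 fold change against control was 0.21 (SE 0.12, unadjusted p = 0.103, adjusted p = 1.0 by edgeR). The Leu-CAG copy at chr13:95701090 had 1006, 1041 and 1070 CPM in control and 1225, 1104 and 1261 in MMT, again without overlap, with a log2 fold change of 0.21. Its sequence is that of 2 further copies, at chr13:93938654 (0.10) and chr13:95752080 (0.18), whose groups overlapped. The third, a Pro-TGG copy at chr15:31849911 of the common sequence, overlapped between groups (log2 fold change 0.25). On the lower side stood Ile-TAT copies at chr1:86601107 and chr6:7023025 (both -0.17) and the divergent Trp-CCA copy at chr13:76470386 (-0.33), all with overlapping groups.

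MnCl2 against control, the comparison with the positive control, gave lower values for tryptophan and for Ile-TAT that did not pass the adjustment. The summed Trp-CCA level was 12210, 9409 and 8267 CPM in control, 9925, 9351 and 9418 in MMT, and 7164, 7344 and 7766 in MnCl2. Every MnCl2 library lay below every library of the other groups, and control 1 stood highest. The log2 fold change was -0.42 (SE 0.16, unadjusted p = 0.019, adjusted p = 0.974 by edgeR) for MnCl2 against control and -0.06 (SE 0.16, adjusted p = 0.999) for MMT against control. Without control 1 the MnCl2 value was -0.27.

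Ile-TAT, the isoleucine tRNA whose genes span 19 to 20 bases more than the spliced sequence, had the same order of means. Its sums were 1060, 1051 and 887.1 CPM in control, 893.4, 811.7 and 943.9 in MMT, and 651.9, 767.6 and 819.9 in MnCl2. MnCl2 lay below control without overlap, and MMT overlapped both. With total-count scaling MMT lay wholly below control and wholly above MnCl2. The log2 fold change of MnCl2 against control was -0.42 (SE 0.16, unadjusted p = 0.0242, adjusted p = 0.974 by edgeR).

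Leu-CAG, Tyr-GTA and Pro-TGG sums were also lower in every MnCl2 library than in every control library, with log2 fold changes of -0.18, -0.28 and -0.17. With total-count scaling or with the scaling of the single-gene table these 3 overlapped, and for Trp-CCA the groups overlapped with the latter. Ile-TAT did not overlap under either. How many entries of the whole table did not overlap was not counted, so these sums are not read as an excess. With an unadjusted p below 0.05, 0 of 14 sums were higher and 2 lower, where 1.06% and 3.17% of the table's entries were, and 0 were called (0.0% of the table). Without MnCl2 replicate 1, and with the 2 groups fitted alone, 0 of the 14 were lower at that p.

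**Figure D3:**
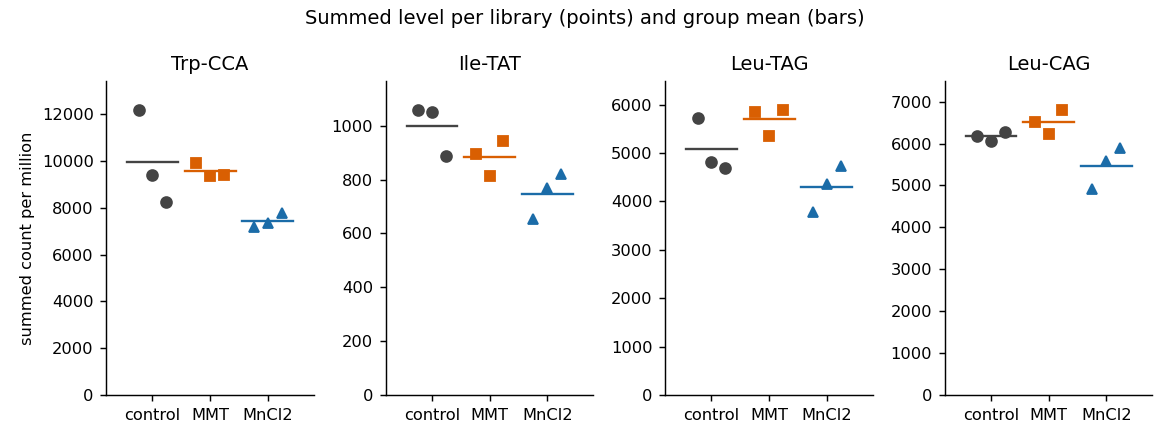
Summed CPM of Trp-CCA, Ile-TAT, Leu-TAG and Leu-CAG in each library (points) with group means (bars), axes from 0. MnCl2 libraries of Trp-CCA lie at 7164 to 7766 CPM, below all others, and those of Ile-TAT at 651.9 to 819.9 CPM, below the controls.

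Among single copies 0 of 98 were called in MnCl2 against control (0.0% of all entries, lowest adjusted p 0.843 by edgeR, 0 called by DESeq2). At an unadjusted p under 0.05, 0 members were higher, against 1.44% of all entries, and 6 were lower, against 3.14%. The 6 were 4 of 8 Trp-CCA copies and 2 of 3 Ile-TAT copies, the latter identical in sequence. Neither number was stable. There were 7 higher members without control replicate 3 and 2 with the total as covariate. The lower count was 1 without control replicate 1, 2 without control replicate 2, 1 without MnCl2 replicate 1 and 0 without MnCl2 replicate 2. In 2 copies all MnCl2 libraries lay above all controls (4.76% of all entries), and in 6 below (4.94%). Of the 310 other nuclear tRNA genes, 1 lay wholly above and 31 wholly below. The Ile-TAT copy at chr17:58772894 had the lowest p, with 343.6, 348.9 and 302.4 CPM in control and 230.6, 248.2 and 283.2 in MnCl2, which did not overlap (log2 fold change -0.39, SE 0.14, unadjusted p = 0.0195). Its identical copy at chr6:7023025 had 369.7, 375.3 and 282.7 CPM in control and 238.9, 263.8 and 291.6 in MnCl2, which overlapped (-0.37). Trp-CCA copies at chr17:45710123 (-0.38) and chr17:45701979 (-0.39) came next. The latter had 1530, 1219 and 1033 CPM in control and 975.0, 912.5 and 1009 in MnCl2, which did not overlap.

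The alanine-like copies and the other members had unlike fold changes of MnCl2 against control, and they differed in level as well. Of all 98 copies 40 were positive and 58 negative, with a median of -0.04 beside 0.06 over all entries, and with RLE scaling 32 were positive and 66 negative. The 310 other nuclear tRNA genes also leaned lower, with 98 positive and 212 negative and a median of -0.1. MicroRNAs leaned higher, with 476 positive and 139 negative and a median of 0.23. The lower direction was thus not particular to the members. Of the 25 alanine-like copies 21 were positive and 4 negative, with a median of 0.29, while the other 73 members had 19 positive and 54 negative values and a median of -0.07. All 8 proline-type Pro-AGG copies were negative, with a median of -0.11. The sum of the alanine-like copies moved less, with a log2 fold change of 0.08 (SE 0.22, unadjusted p = 0.723). Their 2 most abundant copies summed to 504.6 ± 82.9 CPM in control and 426.4 ± 47.1 in MnCl2, and the other 23 to 796.7 ± 331.0 and 993.0 ± 105.0. Both of the 2 had negative log2 fold changes (-0.37 and -0.1). Of the other 23, all below 100 CPM, 21 were positive, with a median of 0.3. The same direction held for other entries of low level: 407 of 527 non-members below 100 CPM were positive, with a median of 0.33, as were 7 of 8 other members below 100 CPM, with a median of 0.28. Among nuclear tRNA non-members below 100 CPM it was weaker, at 35 of 54 and a median of 0.15. No test set the alanine-like copies apart from these. The alanine-like copies with the lowest p were those at chr4:2120710 (log2 fold change 0.30), chr13:47081314 (0.68) and chr4:56156092 (0.85). The first had 77.27, 81.12 and 85.11 CPM in control and 98.05, 100.6 and 100.7 in MnCl2, without overlap, and the other pair overlapped.

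**Figure D4:**
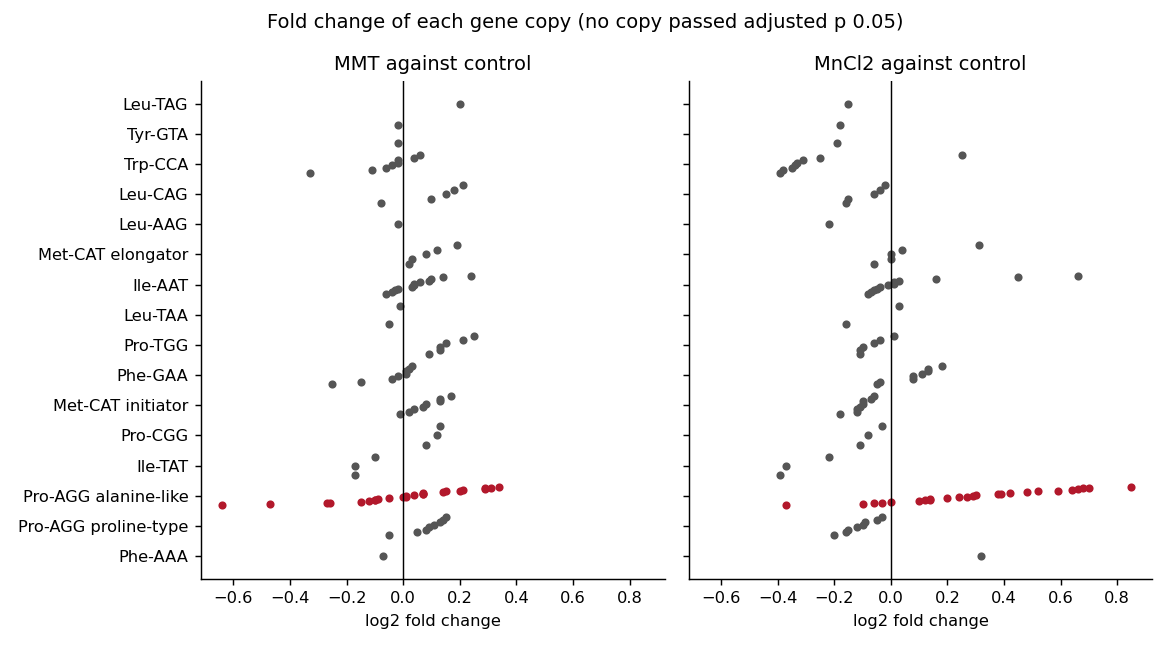
Log2 fold change of each of the 98 copies for MMT against control and MnCl2 against control, which share the control libraries; rows are anticodons or sequence forms and alanine-like Pro-AGG copies are red. Under MnCl2 most red points lie right of 0 (21 of 25) and Trp-CCA copies lie left of 0 except 1, and no copy passed the adjusted test.

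MMT against MnCl2 compared the 2 manganese compounds, which differ in form, dose and vehicle, so a difference between them cannot be told apart from one of dose. Among the anticodon sums, Leu-TAG and Trp-CCA differed most. The summed Leu-TAG level was 5719, 4822 and 4695 CPM in control, 5856, 5345 and 5899 in MMT, and 3773, 4361 and 4732 in MnCl2. MMT lay above MnCl2 without overlap, and the controls overlapped both. With total-count scaling the controls overlapped neither, as MMT lay wholly above them and MnCl2 wholly below. The log2 fold change was 0.41 (SE 0.15, unadjusted p = 0.0155, adjusted p = 0.995 by edgeR), and 0.37 for Trp-CCA (SE 0.16, unadjusted p = 0.0377). These 2 of 14 sums were the ones higher at an unadjusted p under 0.05, with 0 lower, where 1.19% and 0.528% of the table's entries were so, and 0 were called (0.0%). Without MnCl2 replicate 1 there were 0 such sums. Leu-CAG (0.25), Pro-TGG (0.30) and Leu-AAG (0.26) were also higher in every MMT library than in every MnCl2 library. Leu-AAG overlapped with total-count scaling and with the scaling of the single-gene table, and Pro-TGG with the latter. With total-count scaling Pro-CGG in MMT also lay wholly above MnCl2. How many entries of the whole table did not overlap was not counted, so these sums are not read as an excess.

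Among single copies 0 were called in MMT against MnCl2 (0.0% of all entries, 0 by DESeq2). With an unadjusted p below 0.05 there were 7 higher members and 0 lower ones, against 1.35% and 0.629% of all entries. That count ran from 0 without MnCl2 replicate 2 to 24 without MMT replicate 2, and was 15 with the 2 groups fitted alone. In 15 copies MMT lay wholly above MnCl2 and in 4 below, where 4.31% and 4.76% of all entries did, and the 15 included 7 of 8 Trp-CCA copies. Of these 7, 2 are identical in sequence, and such copies are not independent, so the 15 is not read as an excess. The median log2 fold change was 0.09 over the 98 members and -0.06 over all entries. It was 0.04 over the other nuclear tRNA genes and -0.19 over microRNAs. The Pro-TGG copy at chr1:169977022 had the lowest p (log2 fold change 0.32, SE 0.12, unadjusted p = 0.0194, adjusted p = 0.981 by edgeR). Leu-TAG (0.35 in the single-gene table) and the Trp-CCA copy at chr17:45701979 (0.37) followed. On the lower side were the divergent Trp-CCA copy at chr13:76470386 (-0.58), the Phe-GAA copy at chr17:58764594 (-0.28) and the alanine-like Pro-AGG copy at chr13:47081314 (-0.67).

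The level of the alanine-like Pro-AGG copies followed the depth of the libraries. Their summed levels were 916.5, 1309 and 1756 CPM in control replicates 1, 2 and 3, whose totals were 2012769, 1006283 and 583045 counts. In MMT it was 1185, 1459 and 1122 CPM at totals of 1227930, 730044 and 1543987, and in MnCl2 1378, 1505 and 1315 CPM at 753383, 925950 and 989556. The deepest library was lowest in each group. Over the 9 libraries Pearson's r between the log2 sum and the log2 total was -0.957 (exact permutation p = 0.000107, adjusted 0.00193 over 18 relations) and Spearman's rho was -0.95 (exact permutation p = 0.000353, adjusted 0.00317). With each group centred on its mean r was -0.954 (exact permutation p = 0.0231 within groups). Control 1 and control 3 had totals farthest from the median, and r over the other 7 libraries was -0.877 (exact permutation p = 0.0121).

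Phe-AAA, the scarce gene nearer to genes of other amino acids than to Phe-GAA, had the same relation, with 10.38, 43.03 and 93.87 CPM in control 1, 2 and 3 and r of -0.93 (exact permutation p = 0.000229, adjusted 0.00206). Up to the anticodon its bases are those of the alanine-like copy at chr8:115483344. Short 5′ reads of these genes cannot be told apart, so Phe-AAA is not taken as a separate case. Where its reads lay was not examined. The proline-type Pro-AGG copies did not have the negative relation, with r of 0.626 (exact permutation p = 0.0736, adjusted 0.147). Some sums had positive relations: Ile-AAT had rho of 0.9 (exact permutation p = 0.00203, adjusted 0.0122) and r of 0.801 (exact permutation p = 0.00905, adjusted 0.0543). Over the 9 libraries r was 0.596 for Ile-TAT and 0.71 for Trp-CCA (adjusted exact permutation p = 0.159 and 0.0953). With groups centred it was 0.771 (exact permutation p = 0.00463) and 0.861 (exact permutation p = 0.0556). Sums with smaller log2 fold changes in MnCl2 against control had similar centred values. These were 0.814 for Ile-AAT (log2 fold change -0.12), 0.805 for Leu-TAG (-0.24) and 0.733 for Met-CAT (-0.13). Over the 7 libraries without control 1 and control 3, r was 0.636 for Ile-TAT and 0.499 for Trp-CCA (exact permutation p = 0.119 and 0.253). The negative relation was shared by entries of low level in general: the median r per entry was -0.674 over 527 non-members below 100 CPM and 0.454 over 488 non-members of 100 CPM or more, beside -0.744 over the 25 alanine-like copies and 0.561 over the other 73 members. The MnCl2 totals (753383, 925950 and 989556 counts) lay within the range of the control totals (583045 to 2012769), which control 1 stretched upward. With the log2 total as a covariate the log2 fold change of MnCl2 against control was -0.35 for Trp-CCA and -0.37 for Ile-TAT, neither called. The part of depth in the fold changes was otherwise not tested.

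**Figure D5:**
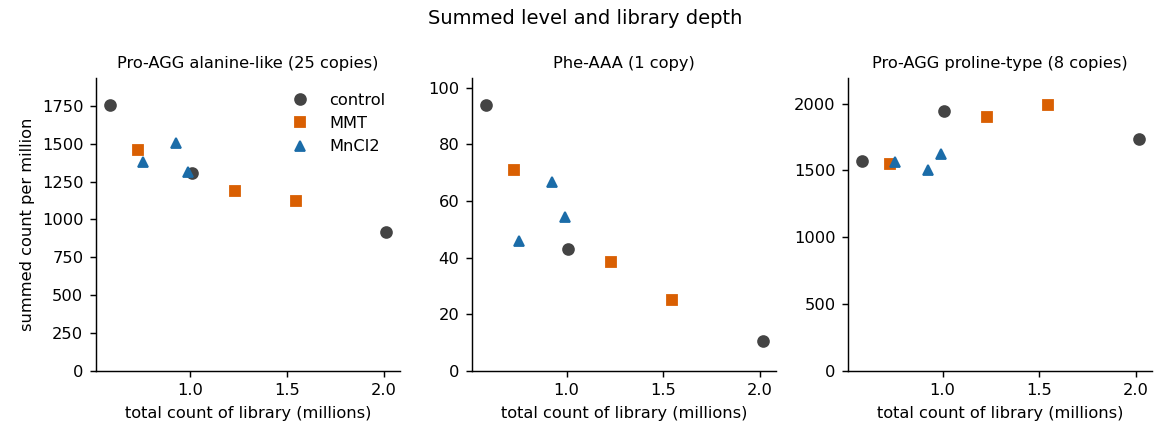
Summed CPM (axes from 0) against the total count of each library for alanine-like Pro-AGG, Phe-AAA and proline-type Pro-AGG, with 1 point per library. Alanine-like copies fall from 1756 CPM in the shallowest library to 916.5 in the deepest, and the proline-type copies do not fall.

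Among the piRNA entries, pir-62462, pir-62463 and pir-64116 matched the 5′ part of 7 initiator copies and had 3 to 14 counts in all libraries together. Reads of these entries and of the initiator genes cannot be told apart by sequence.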

How the data were processed

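Small RNAs of 9 rat striatum libraries were counted, 3 per group. Per the labels' protocols, RNA of 15 to 45 nucleotides was cut from a gel, and adapters came from the QIAseq miRNA kit. Trimmomatic and the build rn6 are named, per the submitters' processing notes; what aligned the reads, how multiply matching reads were placed and whether molecular identifiers served to count is not given in the sources used here. The authors deposited raw counts, whole numbers that sum to 583045 to 2012769 per library, with no normalization. Counts may thus include PCR copies.

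The members and lists were chosen with earlier results of these data known. Groups came from the titles and treatment labels. Counts of all entries were fitted with edgeR 4.0.16 in R 4.3.3 (robust quasi-likelihood test, two-sided, after filterByExpr and TMM), all 9 libraries in 1 fit, with Benjamini-Hochberg adjustment over the 1113 entries tested at 0.05. The coefficient of biological variation was 0.279. Anticodon sums were tested in a second table of 757 entries, and shares by exact permutation over 20 arrangements. Replicate numbers were not taken to pair the libraries, as no pairing was evident. Same-numbered libraries of different groups had correlations of deviations from -0.666 to 0.493 (median 0.062). Those of differently numbered libraries ran from -0.771 to 0.753 (median -0.107).

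Named copies were, per comparison, the 3 of lowest p in each direction, with the 5 most abundant copies and the most abundant of each anticodon. Copies named for divergence, depth relations and sequence forms were chosen after values were seen. A Pro-AGG gene was called proline-type at 90% identity or more to the Pro-CGG sequence. Settings varied were the tool (DESeq2 1.42.0), the scaling (RLE, total count), the filter (none, or 10 CPM in 3 libraries), the 2 groups alone, each library left out, a replicate block, the total as covariate, no robust weights and identical sequences summed. Scripts were tested on simulated data. The sequence of 1 member form is not reported here. Other steps used Python 3.11.15, numpy 2.4.6, pandas 2.3.3 and matplotlib 3.10.9.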

Additional observations from a re-analysis of the deposited data

How the results depend on the processing

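No member was called in any comparison under any of the alternatives run. Without a filter on low counts, 1 entry was called among single genes in MnCl2 against control (rno-miR-200a-3p), and among anticodon sums and other entries 1 in MMT against control (mitochondrial Leu-TAA) and 2 in MnCl2 against control (both), none of them members; the cause was not tested. With the replicate block 0 members and 0 entries were called, and the Phe-AAA log2 fold change of MMT against control was 0.11. Among the alternative log2 fold changes of anticodons and named copies, 24 changed sign and 1068 did not. With the total as covariate Phe-AAA turned to 0.31 (MMT against control) and 0.03 (MMT against MnCl2), and Phe-GAA turned to 0.01 with DESeq2 and with RLE scaling (MMT against MnCl2). With alanine-like copies alone Pro-AGG turned to 0.08 (MnCl2 against control) and -0.16 (MMT against MnCl2). Leaving out 1 library at a time gave, for MMT against control, -0.04 to 0.08 for Ile-AAT, -0.14 to 0.02 for Leu-AAG, -0.13 to 0.03 for Leu-TAA, -0.62 to 0.76 for Phe-AAA, -0.16 to 0.04 for Phe-GAA, -0.18 to 0.11 for Trp-CCA and -0.1 to 0.02 for Tyr-GTA. It gave -0.29 to 1.09 for Phe-AAA in MnCl2 against control, and -0.81 to 0.05 for Phe-AAA and -0.14 to 0.04 for Phe-GAA in MMT against MnCl2. The cause of these changes was not tested. Total-count scaling moved the median of all entries of the anticodon table in MnCl2 against control from 0.07 to 0.16. The filter of 10 CPM in 3 libraries left the same 1113 entries, so it could not change the fits. All 30 alternative values of the members' share lay within 1 SD of the main value.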
